A study of Rattus norvegicus with 16 samples.

Results

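The genes described here carry the instructions for sodium and potassium channels and their accessory subunits in rat sciatic nerve. A gene was a member when its symbol began with Kcn, or when it read Scn followed by a number and the letter a or b. Each gene was read from its brightest probe set, judged by the mean of 16 arrays. The rule found 98 members among the 18166 genes of the array, and Kcnk6, a background potassium channel, was the only member with more than 1 probe set. The set is broader than voltage-gated channels. It held 11 sodium channel genes, of which 8 encode alpha (pore-forming) subunits and 3 encode beta subunits, and 47 genes of voltage-gated potassium channels and their accessory subunits. The other members were 15 inward rectifiers, 13 two-pore domain channels, 11 genes of calcium- or sodium-activated channels, and Kcnrg, which encodes a soluble regulator of potassium channels and no channel.

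Voltage-gated sodium channels open when the membrane depolarises and carry the upstroke of the action potential, and voltage-gated potassium channels bring the membrane back towards rest. In myelinated axons sodium channels cluster at the nodes of Ranvier and potassium channels of the Kv1 family lie under the myelin beside them, whereas inward rectifier and two-pore domain channels set the resting potential of axons, Schwann cells and other cells. The cell bodies of sciatic axons lie in ganglia and the spinal cord, so most of the RNA of a nerve segment comes from its resident cells.

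The data were Affymetrix Rat Gene 2.0 ST arrays of total RNA from sciatic nerves of male Sprague Dawley rats, 6 weeks old. In the injured groups the nerve had been cut on one side, a segment had been taken out and the distal end tucked aside to keep axons from regrowing, and the nerve distal to the cut was collected at 3 or 7 days after injury (DPI, days post injury). In the contralateral groups the intact sciatic nerve on the opposite side of operated animals was collected on the same days, so no group came from an animal without surgery. The 4 groups (injured 3 DPI, contralateral 3 DPI, injured 7 DPI and contralateral 7 DPI) held 4 arrays each, labelled as biological replicates, and the labels do not tie a nerve to an animal. Values are log2 values made by robust multi-array averaging (RMA), in which 1 unit is a doubling of signal, and they were compared between arrays for a gene but not between genes.

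The median probe set lay between 6.27 and 6.40 on the 16 arrays, and arrays of 1 group correlated at 0.982 to 0.989. The Schwann cell genes Pmp22, S100b and Sox10 lay in the top 0.45%, 0.8% and 26.22% of genes on every array. Of the 98 channel genes, 31 lay below the lowest array median on every array, so their changes were read from dim signal in all groups. Another 5 lay above the upper quartile of every array in the contralateral nerves.

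The first question was which channel genes differed between injured and contralateral nerve. A gene was called when its adjusted p (Benjamini-Hochberg over all 18166 genes, limma) was under 0.05 and it differed at least 2-fold. At 3 DPI 10 of the 98 members (10.2%) were called, against 5.81% of all genes. Of these, 8 were lower (8.16%, against 2.55% of all genes) and 2 were higher (2.04%, against 3.25%). At 7 DPI 9 members (9.18%) were called, against 4.66% of all genes, with 8 lower (8.16%, against 2.17%) and 1 higher (1.02%, against 2.48%). By adjusted p alone, 25 members passed at 3 DPI (25.5%, against 33.5% of all genes), 8 of them higher (18.8% of all genes) and 17 lower (14.7%). At 7 DPI 24 passed (24.5%, against 32.1%), 7 of them higher (19.1% of all genes) and 17 lower (13%). Both days were passed by 19 members, each in the same direction (19.4%, against 23.7% of all genes). The shares of the members and of all genes were not tested against each other. The median change of the members was -0.05 at 3 DPI and -0.12 at 7 DPI, beside -0.01 and 0.00 for all genes tested. The arrays of injured and contralateral nerve did not overlap for 25 members at 3 DPI (25.5%, against 33.9% of all genes) and for 25 at 7 DPI (25.5%, against 31.7%).

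Called lower on both days were 7 members, Kcnk1, Kcna1, Kcna2, Scn7a, Kcnrg, Kcnh8 and Kcnk2, against 1.77% of all genes. Scn3b was the 1 member called higher on both days, against 2.02% of all genes. Kcna5 was called lower and Kcne4 higher at 3 DPI, and Kcnj13 lower at 7 DPI. The called genes came from 8 of the channel classes, and no member of the Kv beta, Kv2, Kv3, Kv4, KChIP or Kv7 families, of the modifier subunits or of the calcium- or sodium-activated channels was called on either day.

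**Figure D1:**
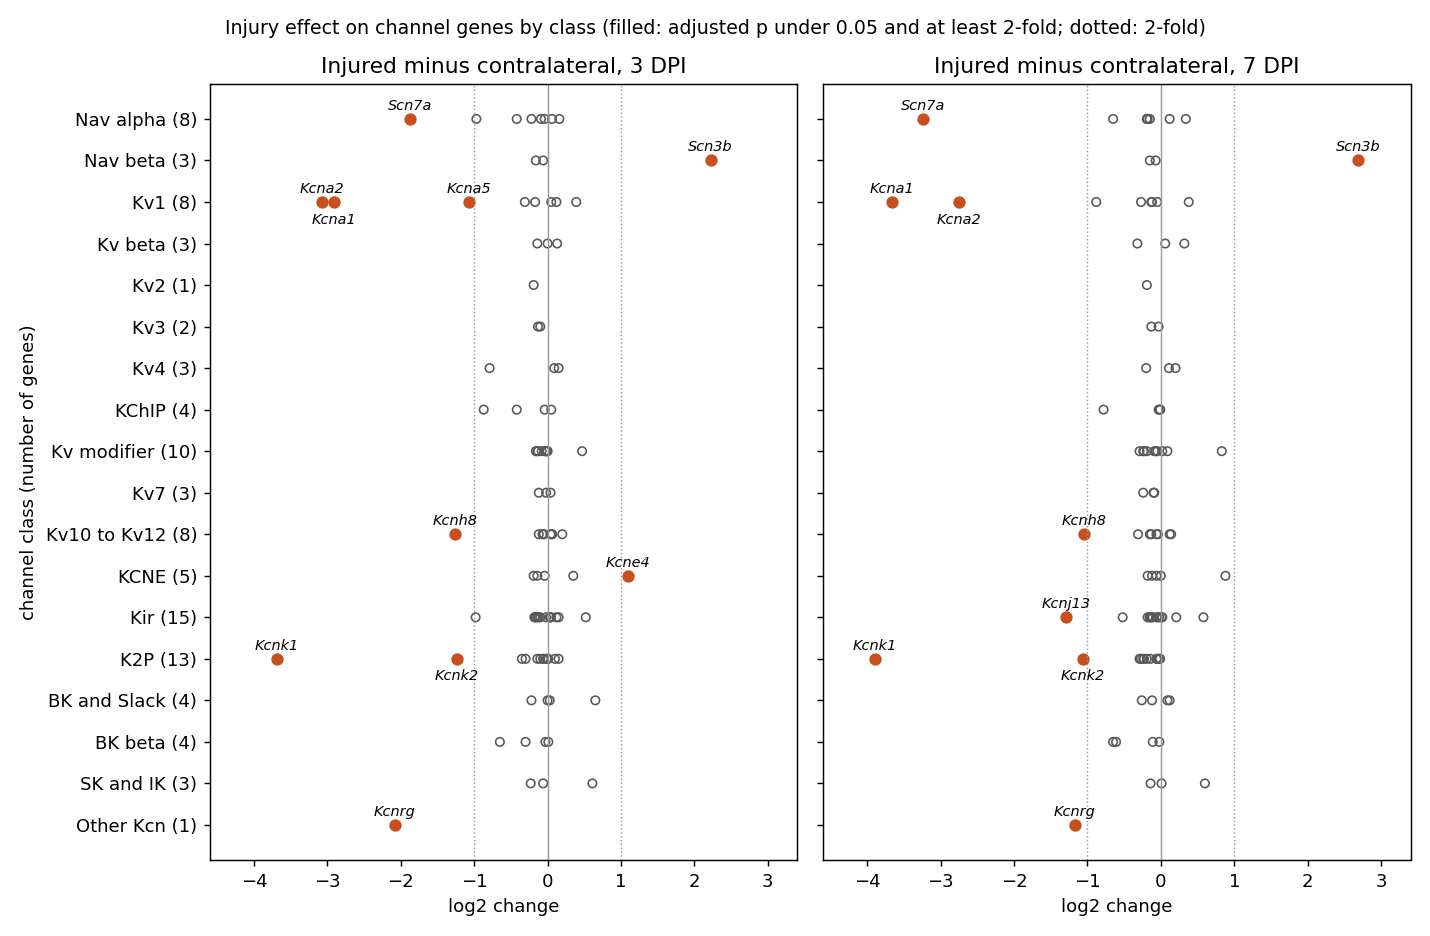
Log2 change of each of the 98 channel genes (injured minus contralateral nerve) at 3 DPI on the left and 7 DPI on the right, with 1 row per channel class and the number of genes in brackets; filled points are called genes and open points are not. Most genes lie near 0 on both days, and the called genes lie to the left except Scn3b and, at 3 DPI, Kcne4.

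Among the two-pore domain channels, which carry background potassium currents, Kcnk1 (probe set 17731202, chromosome 19) had the lowest change of the 98 members on both days. It encodes a widely expressed background channel. At 3 DPI it read 7.52, 7.17, 7.47 and 7.32 in injured nerves, against 10.79, 11.02, 11.34 and 11.08 in contralateral nerves. At 7 DPI the values were 7.04, 6.97, 6.76 and 7.08 in injured nerves, against 10.97, 11.06, 10.56 and 10.80 in contralateral nerves. Every injured array lay more than 3 units below every contralateral array of its day. Kcnk1 fell by 3.69 ± 0.13 (SE, n = 4 per group) at 3 DPI, or 12.9-fold (adjusted p = 2.2e-12), and fell by 3.89 ± 0.13 at 7 DPI, or 14.8-fold (adjusted p = 7.3e-13).

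Kcnk2 (probe set 17687521, chromosome 13), a background channel that opens with membrane stretch and heat, changed less. Its values at 3 DPI were 6.59, 6.97, 6.55 and 6.27 in injured nerves, against 7.80, 8.08, 7.74 and 7.71 in contralateral nerves. Its values at 7 DPI were 6.08, 6.68, 6.66 and 6.96 in injured nerves, against 7.59, 7.90, 7.49 and 7.66 in contralateral nerves. The groups did not overlap, and at 7 DPI replicate 1 of the injured nerves was the lowest array. Kcnk2 fell by 1.24 ± 0.17 at 3 DPI (adjusted p = 1.7e-05) and fell by 1.06 ± 0.17 at 7 DPI (adjusted p = 9.8e-05). Without injured replicate 1 the change at 7 DPI was -0.89, and without contralateral replicate 2 it was -0.98, both short of 2-fold. The other 11 two-pore genes changed by less than 2-fold. Kcnk5, an acid- and alkali-sensitive channel, passed the adjusted p alone with changes of -0.35 ± 0.10 at 3 DPI (adjusted p = 0.010) and -0.29 ± 0.10 at 7 DPI (adjusted p = 0.032), and Kcnk15 passed at 3 DPI alone with -0.30 ± 0.08.

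The Kv1 family, which includes the potassium channels of the juxtaparanode, split. Kcna1 (probe set 17795062, chromosome 4) read 8.11, 7.51, 8.23 and 7.92 in injured nerves at 3 DPI, against 10.21, 11.07, 11.33 and 10.80 in contralateral nerves. At 7 DPI Kcna1 read 6.39, 7.21, 6.86 and 6.51 in injured nerves, against 10.42, 10.68, 10.13 and 10.39 in contralateral nerves. The groups lay far apart on both days, and the injured nerves at 7 DPI were all below those at 3 DPI. Kcna1 fell by 2.91 ± 0.23 at 3 DPI, or 7.5-fold (adjusted p = 2.6e-08), and fell by 3.66 ± 0.23 at 7 DPI, or 12.7-fold (adjusted p = 2.3e-09).

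Kcna2 (probe set 17741790, chromosome 2), whose product assembles with that of Kcna1 in axons, read 7.25, 6.92, 7.25 and 7.33 in injured nerves at 3 DPI, against 9.97, 10.52, 10.49 and 10.03 in contralateral nerves. At 7 DPI Kcna2 read 7.13, 7.21, 7.12 and 7.54 in injured nerves, against 9.73, 10.20, 10.01 and 10.07 in contralateral nerves. Injured nerves of both days shared 1 narrow range. Kcna2 fell by 3.07 ± 0.14 at 3 DPI, or 8.38-fold (adjusted p = 7.9e-11), and fell by 2.75 ± 0.14 at 7 DPI, or 6.74-fold (adjusted p = 3.1e-10).

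Kcna5 (probe set 17795060, chromosome 4), a Kv1 subunit best known from the heart and also described in Schwann cells, read 6.20, 5.97, 5.97 and 6.03 in injured nerves at 3 DPI, against 7.08, 7.05, 7.36 and 6.95 in contralateral nerves. Its 7 DPI values were 5.61, 5.96, 5.92 and 6.11 in injured nerves, against 6.89, 6.85, 6.59 and 6.77 in contralateral nerves. The groups did not overlap on either day, and only the fold limit separates the days. Kcna5 fell by 1.07 ± 0.11 at 3 DPI (adjusted p = 7.6e-07) and fell by 0.88 ± 0.11 at 7 DPI (adjusted p = 9.3e-06). Without contralateral replicate 3 the change at 3 DPI was -0.98.

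The other Kv1 genes moved little. Kcna3, a channel best known from T lymphocytes and macrophages, rose by 0.39 ± 0.09 at 3 DPI (adjusted p = 0.0037) and by 0.38 ± 0.09 at 7 DPI (adjusted p = 0.0047). Kcna6 passed the adjusted p at 3 DPI alone, with -0.31 ± 0.08. Kcna4, Kcna7 and Kcna10 did not pass on either day, with changes between -0.27 and 0.12. Of the beta subunits that bind Kv1 channels in the cytoplasm, Kcnab1 (-0.32 ± 0.09, adjusted p = 0.0086) and Kcnab3 (0.32 ± 0.08, adjusted p = 0.0065) passed the adjusted p at 7 DPI in opposite directions, and Kcnab2 changed by 0.00 at 3 DPI and 0.06 at 7 DPI.

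Marker genes of the cells that make myelin moved with these falls. Of 13 measured myelinating Schwann cell markers, 12 were called lower on each day. Their mean log2 level was 9.12 to 9.40 in injured nerves at 3 DPI, against 11.71 to 12 in contralateral nerves, and 8.20 to 8.47 in injured nerves at 7 DPI, against 11.45 to 11.75 in contralateral nerves. General Schwann cell markers stood at 9.18 to 9.23 in injured nerves at 3 DPI, against 9.38 to 9.76 in contralateral nerves, with 1 of 8 called lower. Neuron and axon markers stood at 6.28 to 7.02 in injured nerves at 3 DPI, against 6.75 to 7.00 in contralateral nerves, with 3 of 14 called lower and 1 higher. At 7 DPI the general Schwann cell markers stood at 8.94 to 9.25 in injured nerves, against 9.31 to 9.49 in contralateral nerves, and the neuron and axon markers at 6.17 to 6.61, against 6.61 to 6.74. In whole nerve, fewer cells of a type and less RNA per cell cannot be told apart, and the part of these markers in the channel changes was not tested.

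Scn7a (probe set 17772949, chromosome 3) encodes an atypical member of the sodium channel family that responds to the sodium concentration and is found in glia, including Schwann cells that do not make myelin. At 3 DPI it read 10.18, 10.28, 10.68 and 10.62 in injured nerves, against 11.92, 12.40, 12.52 and 12.38 in contralateral nerves. The 7 DPI arrays read 8.89, 8.51, 8.84 and 8.59 in injured nerves, against 12.03, 12.01, 11.82 and 11.93 in contralateral nerves. The 4 groups fell into 3 separate levels, with the 2 contralateral groups together at the top and the injured nerves at 7 DPI lowest. Scn7a fell by 1.87 ± 0.14 at 3 DPI, or 3.65-fold (adjusted p = 1.2e-08), and fell by 3.24 ± 0.14 at 7 DPI, or 9.45-fold (adjusted p = 2.4e-11).

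None of the other sodium channel alpha subunits was called. Scn9a, a channel of sensory and sympathetic neurons, came closest. It read 6.32, 5.92, 6.32 and 6.54 in injured nerves at 3 DPI, against 6.87, 7.06, 7.83 and 7.21 in contralateral nerves, without overlap. At 7 DPI it read 6.36, 5.53, 6.12 and 5.45 in injured nerves, against 6.55, 6.35, 6.48 and 6.67 in contralateral nerves, where injured replicate 1 lay within the contralateral range. Scn9a fell by 0.97 ± 0.21 at 3 DPI (adjusted p = 0.0016) and fell by 0.65 ± 0.21 at 7 DPI (adjusted p = 0.026). With the contralateral arrays of both days pooled, its change was -0.60 at 3 DPI and missed the adjusted p (0.056), and it was -1.02 at 7 DPI. Its contralateral mean was 6.51 at 7 DPI and 7.24 at 3 DPI, a difference that did not pass the test (-0.73 ± 0.21, adjusted p = 0.21). Scn2a passed the adjusted p at 3 DPI alone (-0.42 ± 0.14, adjusted p = 0.034). Scn8a, the main alpha subunit of mature nodes of Ranvier, had a mean of 5.72 ± 0.24 (SD, n = 4) in injured and 5.66 ± 0.16 in contralateral nerves at 3 DPI, and 5.77 ± 0.17 in injured and 5.92 ± 0.22 in contralateral nerves at 7 DPI. The 95% interval of its change at 7 DPI was -0.43 to 0.12. Scn8a lay below the lowest array median (6.27) on every array, so its changes were read from dim signal. Scn10a and Scn11a, channels of nociceptors, changed by -0.22 and -0.09 at 3 DPI, and neither passed the test on either day.

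Scn3b (probe set 17843434, chromosome 8) went the other way. It encodes a beta subunit, a protein with an immunoglobulin fold that modulates the alpha subunits and takes part in cell adhesion. At 3 DPI it read 9.39, 9.31, 8.66 and 9.28 in injured nerves, against 6.88, 6.95, 7.04 and 6.91 in contralateral nerves. At 7 DPI the values were 9.06, 9.59, 9.32 and 9.88 in injured nerves, against 6.33, 6.93, 6.69 and 7.15 in contralateral nerves. All injured arrays were above all contralateral arrays, and replicate 3 at 3 DPI was the lowest of the injured arrays. Scn3b rose by 2.22 ± 0.19 at 3 DPI, or 4.65-fold (adjusted p = 9.3e-08), and by 2.69 ± 0.19 at 7 DPI, or 6.43-fold (adjusted p = 1.3e-08). The other 2 measured beta genes, Scn2b (-0.16 at 3 DPI and -0.15 at 7 DPI) and Scn4b (-0.06 and -0.07), did not pass the test. Macrophage and monocyte markers rose on the same arrays, with a mean level of 9.69 to 9.94 in injured nerves at 3 DPI, against 7.84 to 8.56 in contralateral nerves, and 9.12 to 9.76 in injured nerves at 7 DPI, against 8.25 to 8.66 in contralateral nerves. Of these 15 markers, 14 were called higher at 3 DPI and 6 at 7 DPI. Their median change was 1.51 at 3 DPI and 0.91 at 7 DPI. Cell division genes rose as well, with 16 of 16 called higher at 3 DPI and 14 at 7 DPI. Their mean level at 3 DPI was 8.97 to 9.4 in injured nerves, against 6.55 to 6.97 in contralateral nerves. At 7 DPI it was 8.9 to 8.99, against 7.14 to 7.47. The part of either marker set in the rise of Scn3b and of other members was not tested.

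**Figure D2:**
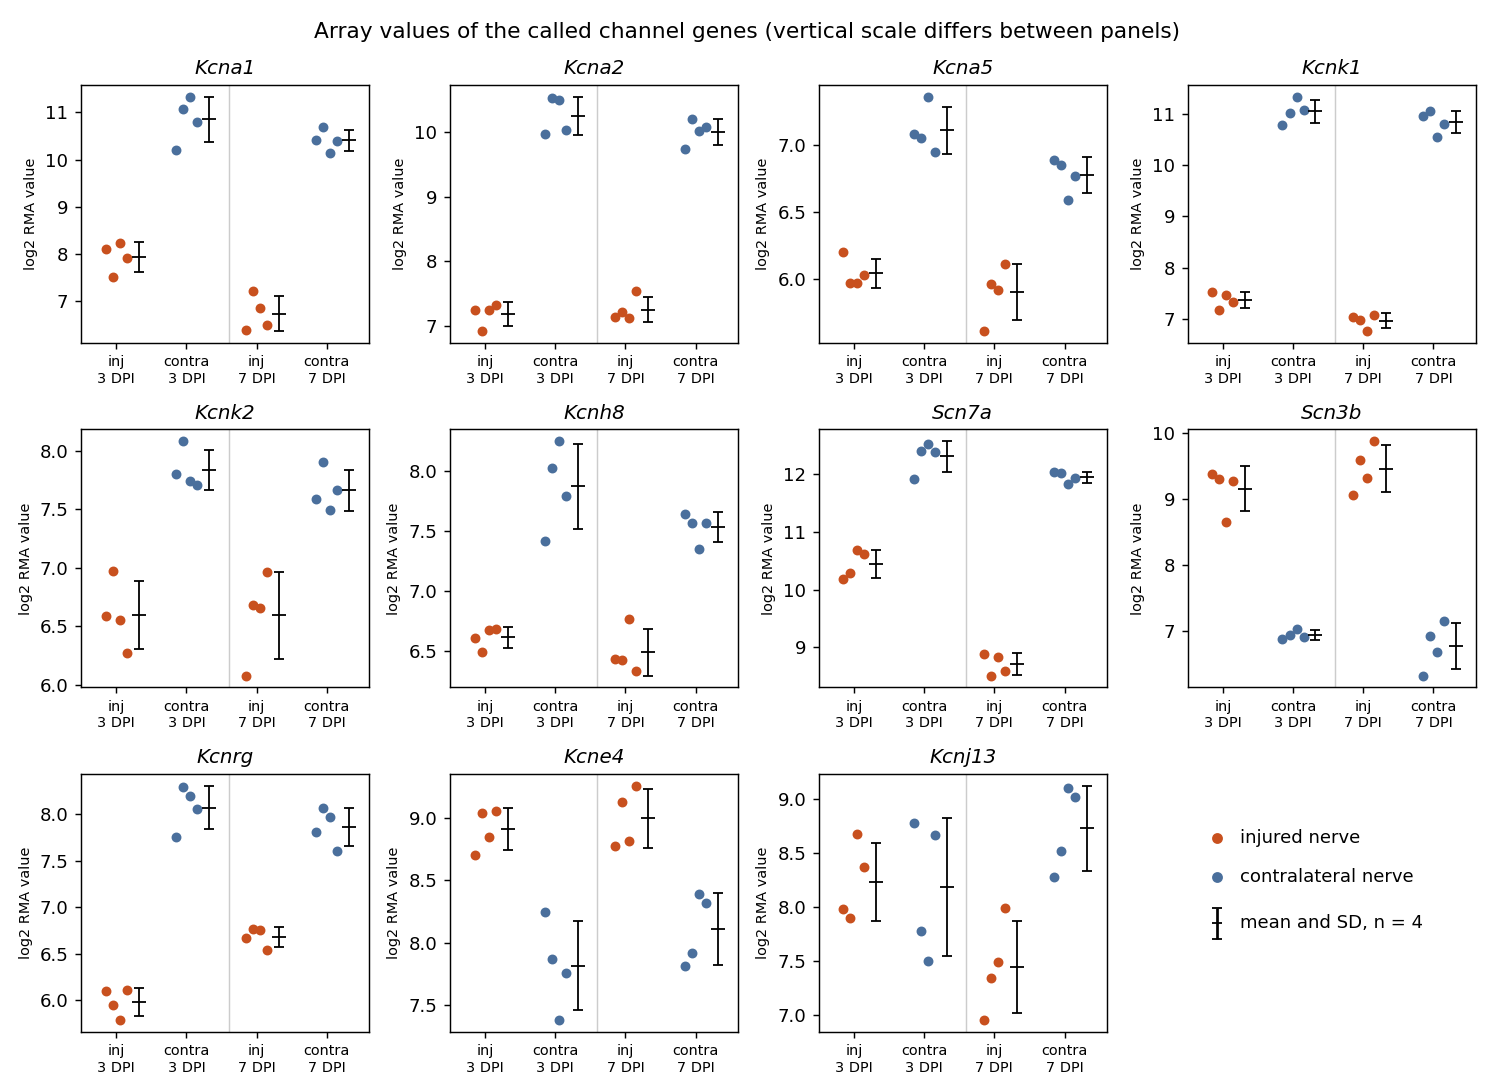
RMA log2 value of each called channel gene on each of the 16 arrays, with 1 panel per gene, injured nerves in orange and contralateral nerves in blue, and the mean with SD (n = 4) beside each group; the vertical scale differs between panels. Injured and contralateral arrays do not overlap in any panel on either day except Kcnj13 at 3 DPI.

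Kcnrg (probe set 17699465, chromosome 15), whose product binds potassium channel subunits before they assemble, read 6.10, 5.95, 5.79 and 6.11 in injured nerves at 3 DPI, against 7.75, 8.29, 8.19 and 8.05 in contralateral nerves. Its 7 DPI values were 6.67, 6.77, 6.76 and 6.54 in injured nerves, against 7.81, 8.07, 7.97 and 7.60 in contralateral nerves. The injured nerves at 7 DPI lay between those at 3 DPI and the contralateral nerves. Kcnrg fell by 2.08 ± 0.12 at 3 DPI, or 4.23-fold (adjusted p = 7.7e-10), and fell by 1.17 ± 0.12 at 7 DPI, or 2.26-fold (adjusted p = 9.4e-07).

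Kcnh8 (probe set 17862473, chromosome 9) encodes a potassium channel of the ELK branch of the ether-a-go-go family, best known from the nervous system. It read 6.61, 6.49, 6.67 and 6.68 in injured nerves at 3 DPI, against 7.42, 8.03, 8.25 and 7.79 in contralateral nerves. At 7 DPI Kcnh8 read 6.43, 6.42, 6.77 and 6.33 in injured nerves, against 7.64, 7.57, 7.35 and 7.57 in contralateral nerves. The groups did not overlap, and contralateral nerves at 3 DPI were the most spread. Kcnh8 fell by 1.26 ± 0.14 at 3 DPI (adjusted p = 2.0e-06) and fell by 1.05 ± 0.14 at 7 DPI (adjusted p = 1.9e-05). At 7 DPI Kcnh8 was just under 2-fold, and no longer called, without injured replicate 4. The other 7 genes of the family were not called, and of these Kcnh2, the ERG channel of cardiac repolarisation, passed the adjusted p at 7 DPI (-0.31 ± 0.08, adjusted p = 0.0078).

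Kcne4 (probe set 17860796, chromosome 9) encodes a single-pass subunit that restrains several potassium channels, Kv1 and Kv7 channels among them. It read 8.70, 9.04, 8.85 and 9.06 in injured nerves at 3 DPI, against 8.25, 7.87, 7.38 and 7.76 in contralateral nerves. The 7 DPI arrays read 8.78, 9.13, 8.82 and 9.26 in injured nerves, against 7.81, 7.92, 8.39 and 8.32 in contralateral nerves. Injured arrays were above contralateral arrays on both days. Kcne4 rose by 1.10 ± 0.17 at 3 DPI (adjusted p = 7.9e-05) and by 0.88 ± 0.17 at 7 DPI (adjusted p = 0.0007), which is under 2-fold. Without contralateral replicate 3 the rise at 3 DPI was 0.95. Kcne3 passed the adjusted p at 3 DPI alone (0.35 ± 0.12, adjusted p = 0.036), and Kcne1, Kcne2 and Kcne5 changed by -0.19 to 0.00 on the 2 days.

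Inward rectifiers let potassium into the cell more easily than out of it. Kcnj13 (probe set 17866251, chromosome 9), known from transporting epithelia, read 7.98, 7.90, 8.68 and 8.37 in injured nerves at 3 DPI, against 8.78, 7.78, 7.5 and 8.67 in contralateral nerves. At 7 DPI it read 6.95, 7.34, 7.49 and 7.99 in injured nerves, against 8.28, 8.52, 9.10 and 9.02 in contralateral nerves. The groups overlapped at 3 DPI and not at 7 DPI, and arrays within every group spread by more than 0.7 units. Kcnj13 changed by 0.04 ± 0.29 at 3 DPI (adjusted p = 0.93) and fell by 1.29 ± 0.29 at 7 DPI (adjusted p = 0.0023). The difference between the days was -1.33 ± 0.41 (adjusted p = 0.13), so a difference in injury effect between the days was not shown. Perineurial markers were lower on the same arrays, with a mean level of 8.33 to 8.61 in injured nerves at 7 DPI, against 8.93 to 9.04 in contralateral nerves, and 6 of 8 fell past the adjusted p, 2 of them called. At 3 DPI they stood at 8.62 to 8.90 in injured nerves, against 8.68 to 9.10 in contralateral nerves, with 4 lower and 1 higher past the adjusted p. In injured nerves at 7 DPI replicate 1 was lowest and replicate 4 highest for both Kcnj13 and the perineurial level. In contralateral nerves at 3 DPI replicates 1 and 4 were the higher pair for both. The same pair was also the higher for macrophage, mesenchymal, and T and natural killer cell markers, so this order was not particular to perineurial markers. Adipocyte markers stood at 6.98 to 7.67 in injured nerves at 7 DPI, against 7.56 to 8.48 in contralateral nerves, with 10 of 12 lower past the adjusted p and 4 called, and at 6.80 to 7.25 in injured nerves at 3 DPI, against 6.94 to 7.74 in contralateral nerves, with 1 lower. Endothelial markers stood at 7.72 to 8.26 in injured nerves at 7 DPI, against 8.13 to 8.67 in contralateral nerves, with 7 of 10 lower past the adjusted p. The part of these markers in the Kcnj13 values was not tested. The gene overlaps Gigyf2 in the GRCr8 annotation, and Gigyf2 was not among the genes measured here.

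Kcnj10, the glial channel that takes up potassium, read 5.58, 6.07, 5.96 and 5.67 in injured nerves at 3 DPI, against 6.55, 7.16, 6.77 and 6.73 in contralateral nerves. At 7 DPI Kcnj10 read 5.97, 5.84, 5.92 and 6.04 in injured nerves, against 6.43, 6.38, 6.45 and 6.58 in contralateral nerves. The groups did not overlap on either day, and the change was 1.98-fold at 3 DPI and 1.43-fold at 7 DPI. Kcnj10 fell by 0.98 ± 0.12 at 3 DPI (adjusted p = 6.3e-06) and fell by 0.52 ± 0.12 at 7 DPI (adjusted p = 0.0033). Kcnj15 rose by 0.52 ± 0.14 at 3 DPI (adjusted p = 0.0071) and by 0.58 ± 0.14 at 7 DPI (adjusted p = 0.0036). The other 12 inward rectifier genes did not pass on either day, with changes between -0.18 and 0.21, among them Kcnj2 (0.15 at 3 DPI and -0.02 at 7 DPI) and Kcnj8 (0.03 and 0.02), the pore of the vascular potassium channel that closes with ATP.

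**Figure D3:**
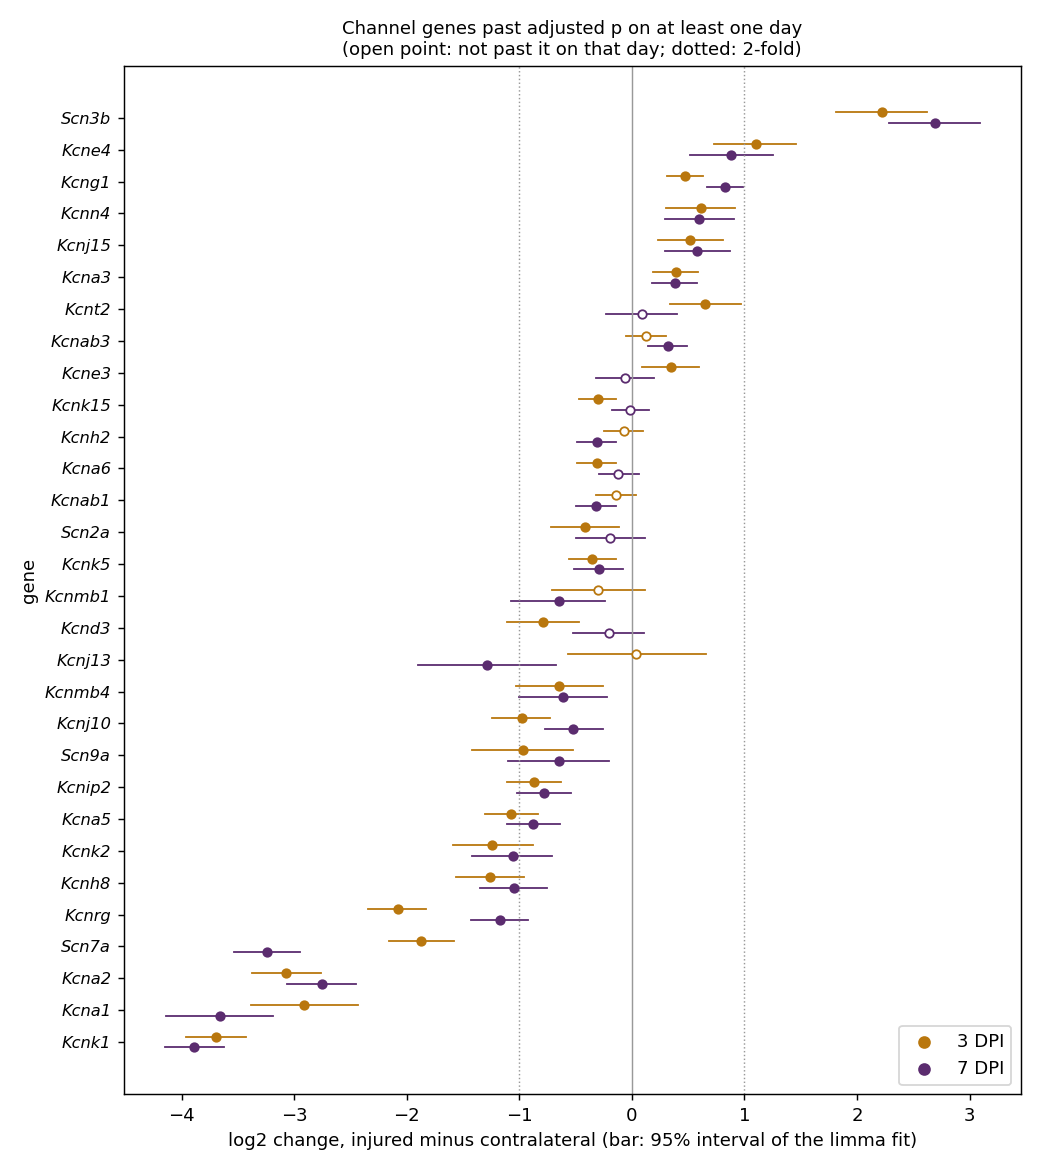
Log2 change (injured minus contralateral nerve) with its 95% interval for the 30 channel genes that passed the adjusted p on at least 1 day, at 3 DPI in ochre and 7 DPI in purple; open points did not pass on that day and dotted lines mark 2-fold. Of these genes 19 passed on both days, all in the same direction, and the genes at the foot of the plot, from Kcnrg to Kcnk1, fell by more than 2-fold on both days.

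Smaller changes reached other channel groups. Kcnip2, a calcium-binding subunit of Kv4 channels, fell without overlap of the arrays, by 0.87 ± 0.11 at 3 DPI (adjusted p = 1.0e-05) and fell by 0.78 ± 0.11 at 7 DPI (adjusted p = 4.1e-05). Kcnd3, a Kv4 pore subunit, read 6.80, 6.73, 6.81 and 6.78 in injured nerves at 3 DPI, against 7.14, 7.52, 8.0 and 7.61 in contralateral nerves, and it fell by 0.79 ± 0.15 (adjusted p = 0.00051). At 7 DPI its change was -0.20 ± 0.15 and did not pass. Kcnd1 and Kcnd2 did not pass on either day. Kcng1, an electrically silent subunit that joins Kv2 channels, read 7.09, 7.21, 6.97 and 7.05 in injured nerves at 3 DPI, against 6.65, 6.76, 6.60 and 6.45 in contralateral nerves. At 7 DPI Kcng1 read 7.35, 7.46, 7.43 and 7.43 in injured nerves, against 6.54, 6.61, 6.69 and 6.50 in contralateral nerves. It rose by 0.47 ± 0.08 at 3 DPI (adjusted p = 0.0001) and by 0.83 ± 0.08 at 7 DPI (adjusted p = 2.3e-07). The other 9 silent subunits did not pass.

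Among the calcium-activated channels, Kcnn4, the intermediate-conductance channel of blood and immune cells, rose by 0.61 ± 0.15 at 3 DPI (adjusted p = 0.0034) and by 0.60 ± 0.15 at 7 DPI (adjusted p = 0.0041). Its values were 7.37, 7.10, 6.95 and 7.52 in injured nerves at 3 DPI, against 6.42, 6.56, 6.69 and 6.83 in contralateral nerves. The sodium-activated channel gene Kcnt2 passed at 3 DPI alone (0.65 ± 0.15, adjusted p = 0.0022). Kcnma1, the pore of the large-conductance channel, changed by 0.03 at 3 DPI and -0.12 at 7 DPI and did not pass. Of its beta subunits, Kcnmb4, the neuronal one, fell by 0.65 ± 0.18 at 3 DPI (adjusted p = 0.011) and fell by 0.61 ± 0.18 at 7 DPI (adjusted p = 0.017). Kcnmb1, the beta subunit of smooth muscle, read 8.66, 7.66, 7.60 and 7.70 in injured nerves at 7 DPI, against 8.73, 8.43, 8.62 and 8.47 in contralateral nerves, and it fell by 0.65 ± 0.19 (adjusted p = 0.016). Injured replicate 1 stood with the contralateral arrays, and the change without it was -0.90. That array also had the highest level of skeletal muscle markers of any array (8.97, against 6.15 to 7.32 in the other injured nerves at 7 DPI). Its smooth muscle marker level was 8.61, against 8.28 to 8.38 in those nerves. The same array was also the highest of its group for adipocyte, endothelial and mesenchymal markers and cell division genes, so this order was not particular to muscle markers. The part of these markers in its Kcnmb1 value was not tested.

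Kv7 genes, some of which carry the M current that steadies axons, did not pass the test on either day. Kcnq3 changed by -0.12 at 3 DPI and -0.10 at 7 DPI, Kcnq5 by 0.04 and -0.09, and Kcnq1 by -0.02 and -0.24. The Kv2 and Kv3 genes measured (Kcnb2, Kcnc1 and Kcnc2) changed by -0.19 to -0.03. In all, 68 of the 98 members passed on neither day, and for 83 members at 3 DPI and 83 at 7 DPI the 95% interval of the change lay within 2-fold in either direction. The matching shares of all genes were not computed, so these counts do not set the members apart from other genes. They include dim genes, as 31 members lay below the lowest array median on every array.

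Next, the injury effects on the 2 days were set against each other. The difference (effect at 7 DPI minus effect at 3 DPI) was called for 1 of 98 members, against 0.385% of all genes, and passed the adjusted p alone for 2, against 1.72%, with 1 lower (0.947% of all genes) and 1 higher (0.771%). Scn7a fell further at 7 DPI, with a difference of -1.37 ± 0.19 (adjusted p = 0.0016). Kcnrg was less reduced at 7 DPI, with a difference of 0.91 ± 0.17 (adjusted p = 0.012). Kcna1 had a difference of -0.76 ± 0.32 that did not pass (adjusted p = 0.31), as did Kcnk1 (-0.20 ± 0.18, 95% interval -0.57 to 0.18), Kcna2 (0.31 ± 0.20) and Scn3b (0.47 ± 0.27).

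Between the injured groups, 2 members were called at 7 DPI against 3 DPI (0.319% of all genes), both lower. Scn7a fell by 1.73 ± 0.14 (adjusted p = 1e-06) and Kcna1 by 1.20 ± 0.23 (adjusted p = 0.0053). By adjusted p alone 5 members passed (4.02% of all genes), the same 2 lower (1.78%) and 3 higher (2.23%). Kcnrg (0.70 ± 0.12), Kcnip1 (0.53 ± 0.10) and Kcng1 (0.34 ± 0.08) were higher at 7 DPI. Kcnip1, a Kv4 subunit, moved alike on the uninjured side. It read 5.63, 5.54, 5.35 and 5.59 in injured nerves at 7 DPI, against 5.15, 5.12, 5.02 and 4.68 in injured nerves at 3 DPI. In contralateral nerves it read 5.48, 5.55, 5.65 and 5.48 at 7 DPI, against 5.25, 4.90, 5.04 and 4.93 at 3 DPI (0.51 ± 0.10, adjusted p = 0.068), and its injury effect was -0.04 at 3 DPI and -0.01 at 7 DPI.

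Between the contralateral groups, limma called 0 of 98 members at 7 DPI against 3 DPI (0.011% of all genes), and 0 passed by adjusted p alone (0.0716%), although 17 had an unadjusted p under 0.05 (17.3%, against 11.2% of all genes). Changes ran from -0.73 for Scn9a to 0.55 for Kcnj13, and the 95% interval lay within 2-fold for 96 members, a count whose share over all genes was not computed.

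Several members lie next to each other in the genome, with no other protein-coding gene between them in the RefSeq annotation of the rat assembly GRCr8. The changes of neighbours were not tested against each other. On chromosome 2, in the order Kcna3, Kcna2, Kcna10, the changes at 3 DPI were 0.39, -3.07 and 0.12, so the middle gene alone was called. On chromosome 4, in the order Kcna5, Kcna1, Kcna6, they were -1.07, -2.91 and -0.31, all past the adjusted p. On chromosome 3, in the order Scn1a, Scn9a, Scn7a, they were -0.04, -0.97 and -1.87 at 3 DPI, and 0.12, -0.65 and -3.24 at 7 DPI. Kcnj9 changed by -0.16 at 3 DPI beside its neighbour Kcnj10 at -0.98, and Kcnj6 by -0.02 beside Kcnj15 at 0.52. Other adjacent pairs lay close together at 3 DPI and passed on neither day, among them Scn2b and Scn4b (-0.16 and -0.06), Kcnj5 and Kcnj1 (0.04 and 0.12) and Kcnj16 and Kcnj2 (0.04 and 0.15).

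**Figure D4:**
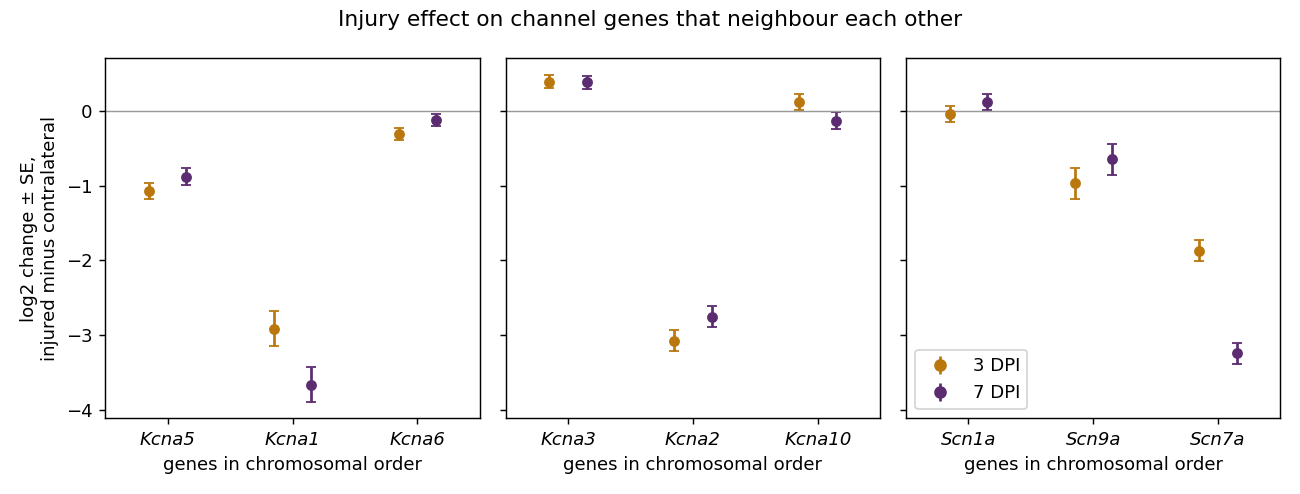
Log2 change with SE (injured minus contralateral nerve) at 3 DPI in ochre and 7 DPI in purple for 3 runs of neighbouring channel genes, in their order along the chromosome. Kcna2 lies more than 2.5 units below both neighbours, and Kcna1 and Scn7a are the lowest of their runs on both days.

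The upstream sequences of 3 genes that fell on both days are shown because these genes fell together but differ in base composition and motif matches there. Each is the 250 bases before the gene start in GRCr8 from RefSeq, read in the direction of the gene, with motif matches in capitals. Kcna2 lies at chr2:197393280-197393529 (plus strand), Scn7a at chr3:71846285-71846534 (minus strand), and Kcnk2 at chr13:103438643-103438892 (minus strand), the first of 2 starts listed.
Kcna2: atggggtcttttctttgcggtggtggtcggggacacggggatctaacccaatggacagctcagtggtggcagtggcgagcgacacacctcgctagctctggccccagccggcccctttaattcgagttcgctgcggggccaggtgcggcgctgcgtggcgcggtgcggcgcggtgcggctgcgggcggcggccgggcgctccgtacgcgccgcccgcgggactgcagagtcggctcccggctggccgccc
Scn7a: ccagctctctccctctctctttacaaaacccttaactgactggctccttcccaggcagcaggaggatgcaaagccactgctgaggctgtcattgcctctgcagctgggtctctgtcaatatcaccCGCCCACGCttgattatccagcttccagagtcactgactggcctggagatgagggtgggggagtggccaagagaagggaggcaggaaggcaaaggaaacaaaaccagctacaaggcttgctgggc
Kcnk2: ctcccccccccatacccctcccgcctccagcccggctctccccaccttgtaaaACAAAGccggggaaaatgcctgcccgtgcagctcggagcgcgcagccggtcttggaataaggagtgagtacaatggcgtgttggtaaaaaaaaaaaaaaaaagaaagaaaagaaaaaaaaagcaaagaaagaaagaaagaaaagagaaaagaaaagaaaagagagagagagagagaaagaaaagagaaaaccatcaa
Kcna2 has 72.4% G and C and 33 CpG dinucleotides, Scn7a has 56.0% and 2, and Kcnk2 has 45.6% and 9, beside medians of 51.2% and 5 over all 33469 promoters. Searched on both strands were AP-1 (TGACTCA, in 4.05% of all promoters of this length), SOX (ACAAAG, 16.3%), EGR (GCGNGGGCG, 4.29%) and the TATA box (TATAAA, 12.9%). Scn7a holds 1 EGR match, Kcnk2 holds 1 SOX match at the start shown, and Kcna2 holds none of the 4. The other Kcnk2 start has 42% G and C, 5 CpG dinucleotides and no match. Among the 7 called members with an entry, Kcna2, Kcna5, Kcne4, Kcnh8, Kcnj13, Kcnk2 and Scn7a, the only other match was a TATA box in Kcnj13, and none held an AP-1 match. Kcna1, Kcnk1, Scn3b and Kcnrg had no entry. A match describes letters in this window and was not tested as a binding site.

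Proteins that hold or cluster the channels were read from a list of 23 genes, 22 of them measured. At 3 DPI 2 were called higher (3.25% of all genes) and 5 lower (2.55%). At 7 DPI 1 was called higher (2.48% of all genes) and 3 lower (2.17%). Lgi1, a secreted protein linked to Kv1 channels in brain, ranged from 5.69 to 6.65 in injured nerves at 3 DPI, against 9.65 to 9.93 in contralateral nerves, and from 5.33 to 6.12 in injured nerves at 7 DPI, against 9.29 to 9.80 in contralateral nerves. It fell by 3.63 ± 0.19 at 3 DPI (adjusted p = 2.2e-10) and fell by 3.85 ± 0.19 at 7 DPI (adjusted p = 1.6e-10). Gldn, the gliomedin of Schwann cell microvilli that gathers sodium channels at nodes, fell by 1.91 ± 0.24 at 3 DPI (adjusted p = 6.3e-06) and fell by 3.34 ± 0.24 at 7 DPI (adjusted p = 1.3e-08). Nfasc, whose products include the neurofascins of the node and the paranode, fell by 1.51 ± 0.18 at 3 DPI and fell by 1.41 ± 0.18 at 7 DPI. Lgi4 (-1.67) and Mpdz (-1.15) were called lower at 3 DPI. Nrcam, a partner of gliomedin and neurofascin, was higher at 3 DPI (1.76 ± 0.16, adjusted p = 1.5e-07), and Nedd4l, a ubiquitin ligase that removes sodium channels from the membrane, was higher on both days (1.35 ± 0.13 at 3 DPI and 1.23 ± 0.13 at 7 DPI).

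Accessory proteins of the channels whose symbols fall outside the rule, such as the fibroblast growth factor homologues that bind sodium channels, were 15 measured genes. None was called on either day (5.81% of all genes at 3 DPI and 4.66% at 7 DPI). By adjusted p alone 4 were lower at 3 DPI (14.7% of all genes) and 3 at 7 DPI (13%). Of 15 other channels and transporters of axon and glia, 2 were called higher (3.25% of all genes) and 2 lower (2.55%) at 3 DPI. At 7 DPI 2 were called higher (2.48% of all genes) and 4 lower (2.17%). Atp1b1, a beta subunit of the sodium pump, rose by 1.46 ± 0.18 at 3 DPI and by 1.74 ± 0.18 at 7 DPI. Gja1, a gap junction protein, rose by 1.71 ± 0.19 at 3 DPI and by 1.45 ± 0.19 at 7 DPI. Clcn2, a chloride channel, fell by 1.54 ± 0.11 at 3 DPI and fell by 1.06 ± 0.11 at 7 DPI, and Slc12a2, the sodium-potassium-chloride cotransporter, fell by 1.46 ± 0.10 at 3 DPI and fell by 1.08 ± 0.10 at 7 DPI. The gap junction genes Gjc3 (-1.73 ± 0.14) and Gjb1 (-1.07 ± 0.12) were called lower at 7 DPI.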

How the data were processed

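The authors deposited log2 values of 16 Affymetrix Rat Gene 2.0 ST arrays, processed by RMA (background correction, quantile normalisation and summary per probe set) with the oligo package (version not given in the sources used here). Quantile normalisation hides a change shared by most genes. Scanner output was not used, so signal over background is unknown here and precision rests on the number of arrays. No genome build was given for the array.

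Probe sets with 1 gene symbol gave 18166 genes, all kept, and the brightest probe set stood for a gene. Genes were fitted in limma 3.58.1 (R 4.3.3, lmFit and eBayes, two-sided) as 4 group means, with no block term. Residual degrees of freedom were 12 and prior ones 4.08. The fit was tested on simulated data. The thresholds are those the study states for its neuron arrays. Because the labels do not say which nerves share an animal, p-values measure the spread between these samples.

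Members, classes and lists were chosen with earlier results of these data known. Named genes are called members, the largest change in each class, members nearest the fold limit, channels fixed by name, and the largest called changes of 3 partner lists. Not all are printed. Promoters come from the GRCr8 RefSeq table, which held 69 members. Tables and plots used Python 3.11.15, pandas 2.3.3 and matplotlib 3.10.9. Alternatives were no fold minimum, the dimmest 30% of genes left out, averaged probe sets, median centring, cyclic loess, trend and robust settings, only the groups compared, pooled contralateral arrays, the replicate number as a block, and each array left out.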

Additional observations from a re-analysis of the deposited data

Results flagged for a closer look

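An array far from the other 3 of its group was looked for in the 30 channel genes past the adjusted p on either day, by Dixon's ratio of the gap to the range at its 95% critical value. Of 120 groups of arrays 6 passed, or 5%, and chance passes about 5%. Kcnmb1 stood apart in 2 groups. Its injured replicate 1 at 7 DPI was 8.66, with the other injured nerves at 7.60 to 7.70 (ratio 0.907), and its contralateral replicate 3 at 3 DPI was 8.48, with the other contralateral nerves at 7.89 to 7.98 (ratio 0.853). Kcnh2 was 5.83 in injured replicate 2 at 3 DPI, with the others at 6.05 to 6.07 (ratio 0.884). Kcnj15 was 7.10 in injured replicate 3 at 7 DPI, with the others at 7.44 to 7.5 (ratio 0.858). Kcnt2 was 6.93 in contralateral replicate 3 at 7 DPI, with the others at 6.55 to 6.61 (ratio 0.844). Scn3b was 8.66 in injured replicate 3 at 3 DPI, with the others at 9.28 to 9.39 (ratio 0.85), still above every contralateral array.

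The injury effects of 2 members differed between the days in a test of the difference itself (effect at 7 DPI minus effect at 3 DPI). The difference was -1.37 for Scn7a (limma, adjusted p = 0.0016) and 0.91 for Kcnrg (adjusted p = 0.012).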

How the results depend on the processing

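No change of a member past the adjusted p turned direction under any alternative. Without a fold minimum the counts of members were 25 at 3 DPI, 24 at 7 DPI, 2 for the difference between the days and 5 between the injured groups. With each array left out in turn they ran from 8 to 12 at 3 DPI, from 8 to 9 at 7 DPI and from 1 to 2 for the difference, and stayed at 2 between the injured groups and at 0 between the contralateral groups. Without contralateral 3 DPI replicate 1 the difference for Kcnrg was 1.02, the second call. For single genes past the adjusted p, 881 values under the alternatives stayed called or stayed not called, 13 gained a call and 7 lost one. Kcna5 (-0.98) and Kcne4 (0.95) at 3 DPI lost theirs without contralateral 3 DPI replicate 3. With pooled contralateral arrays they lost it at 3 DPI (-0.90 and 0.95) and gained it at 7 DPI (-1.04 and 1.03), as did Scn9a at 7 DPI (-1.02). Median centring brought Kcnj10 (-1.03) and Scn9a (-1.02) past 2-fold at 3 DPI, and for those genes so did leaving out some arrays. The cause was not tested. Among changes past the adjusted p alone, Kcne3 and Scn2a at 3 DPI, Kcnk5, Kcnmb1, Kcnmb4 and Scn9a at 7 DPI, and Kcng1 between the injured groups missed it (adjusted p 0.050 to 0.12) in at least 1 fit without an array. For Kcng1 this was without injured replicate 3 or 4 at 3 DPI or injured replicate 2 at 7 DPI (0.30 to 0.33). With pooled contralateral arrays the adjusted p was missed at 3 DPI by Scn9a (-0.60, adjusted p = 0.056), Kcne3 (0.20, adjusted p = 0.24) and Kcnk15 (-0.16, adjusted p = 0.18), and at 7 DPI by Kcnmb1 (-0.41, adjusted p = 0.11), Kcnab3 (0.20, adjusted p = 0.089) and Kcnh2 (-0.19, adjusted p = 0.09). Kcne3 also missed it with median centring (adjusted p = 0.069) and, like Scn2a (adjusted p = 0.062), with cyclic loess (adjusted p = 0.05), and Kcnk5 missed it at 7 DPI with only the groups compared (adjusted p = 0.052).

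With the replicate number as a block the counts were 10 at 3 DPI and 9 at 7 DPI, as without it, and Kcne3 at 3 DPI (0.35) missed the adjusted p (0.072). Deviations of same-numbered nerves correlated at -0.08 to 0.22, so the numbers were not taken to pair the samples.

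Without detection calls, a small change in a dim gene cannot be told from none. Groups of 4 arrays limit the precision.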
